A study of Mus musculus with 15 samples.

Results

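The effect of ABX treatment averaged over both stages of a fear extinction experiment was described in dissected medial prefrontal cortex (mPFC) of C57BL/6J mice. All 15 libraries of the series entered it. ABX commonly stands for a cocktail of antibiotics; the labels name no agent, dose or duration. The groups were mice without ABX before extinction (n = 3, replicates 1, 3 and 4), mice with ABX before extinction (n = 4), mice without ABX after extinction (n = 4) and mice with ABX after extinction (n = 4). The ABX difference was taken at each stage, from 7 libraries before extinction and 8 after it, and the mean of both differences was tested, so that the change with extinction itself did not enter. Strain and tissue were the same in all groups. The extraction label speaks of sorted cells although the source is dissected tissue, and no label ties a library to 1 animal, so that the p-values reflect a spread among libraries that may be technical.

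Antibiotics deplete the gut microbiota, and the metabolites of those bacteria reach the brain by way of the blood. The mPFC is a cortical area that controls how conditioned fear declines when the feared cue no longer predicts harm, which is called fear extinction. Its bulk RNA comes from neurons, glia and a small share of vascular cells: endothelial cells, which line the vessels and form the blood-brain barrier, pericytes, which cover capillaries, and the contractile smooth muscle of arterioles.

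Total counts were 44254906 to 57929503 per library, and 19621 to 19939 genes were detected. The markers were those of cortex: Slc17a7, the vesicular glutamate transporter of cortical excitatory neurons, was at 1177 to 1809 CPM (counts relative to the library total after TMM adjustment), Gad1 of inhibitory neurons at 336 to 412 CPM and Cldn5 of endothelial cells at 6.96 to 20.4 CPM. The cerebellar gene Gabra6 did not exceed 0.298 CPM and haemoglobin Hbb-bs 0.0604 CPM. Replicate 1 with ABX after extinction stood apart, with summed blood cell genes at 13.9 CPM, against 0.821 to 3.47 CPM elsewhere, and choroid plexus and ependymal genes at 26.8 CPM, against 10.4 to 14.3 CPM. Replicate 1 with ABX before extinction (3.47 CPM) and replicate 2 without ABX after extinction (3.44 CPM) were the next highest for blood genes.

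With ABX, a group of blood vessel genes was lower at both stages, together with 4 of the 43 members of a calcium handling list. A smaller and more mixed group was higher. In the averaged contrast 105 of 16816 genes (0.624%) passed an adjusted p of 0.05 by edgeR's quasi-likelihood test with Benjamini-Hochberg adjustment, 78 lower (0.464%) and 27 higher (0.161%). The median log2 fold change was -0.52 among the lowered genes and 0.42 among the raised genes. The change was broad and small, since 5149 genes (30.6%) had an unadjusted p under 0.05 and 91 more genes had an adjusted p between 0.05 and 0.06. At a single stage, 1 gene passed before extinction (0.00595%) and 3 after it (0.0178%).

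All 105 genes had the same sign at both stages, which a call on the mean partly fixes, as did 76.9% of all genes tested. Of these, 97 had an unadjusted p under 0.05 at each stage on its own, 73 lower and 24 higher, against 809 of all genes tested (4.81%), 574 lower (3.41%) and 235 higher (1.40%). The libraries with and without ABX did not overlap at either stage for 56 of the 105 genes, 38 lower and 18 higher, where 1.40% of all genes had libraries apart the same way at both stages. For 12 more they were apart before extinction alone and for 37 after it alone, where 6.76% of all genes were apart before and 11.1% after extinction. The call on the mean also partly fixes a small p at each stage and arms that do not overlap. These counts therefore describe the called genes and are no separate support for them.

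**Figure D1:**
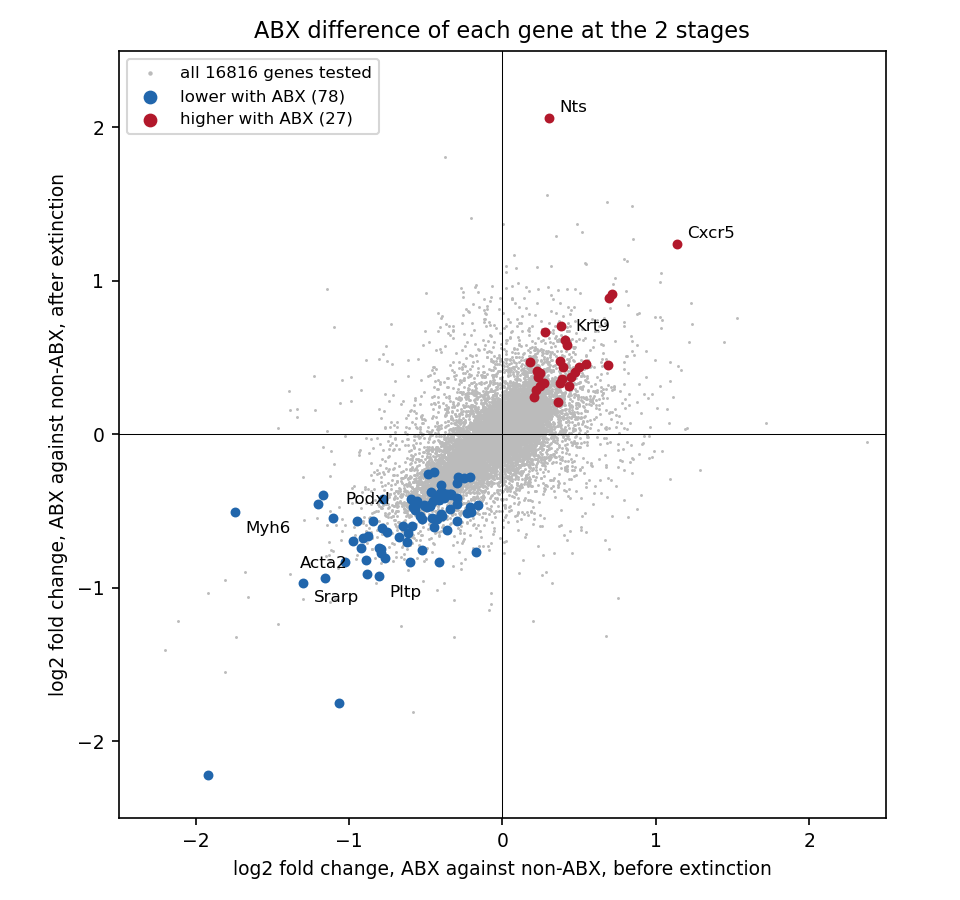
Log2 fold change of ABX against non-ABX before extinction (x axis) and after extinction (y axis) for the 16816 genes tested; blue and red points are the 78 genes lower and 27 genes higher with ABX in the averaged contrast. The coloured points lie to the lower left and the upper right of the origin, where both stages have the same sign; 4 genes fall outside the axes.

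The 2 stages share no library, so the direction at 1 stage was not used to pick genes at the other. Of 1917 genes lower with ABX at an unadjusted p under 0.05 before extinction, 1825 (95.2%) were also on the lower side after it, against 48.4% of all genes, and 574 (29.9%) reached the same unadjusted threshold there, against 6.83% of all genes. Of 769 genes higher before extinction, 705 (91.7%) were on the higher side after it, against 51.6% of all genes. Picking after extinction and reading before it gave 1070 of 1149 lower genes (93.1%) and 964 of 1085 higher genes (88.8%) with the same sign. The fold changes of both stages had a Pearson r of 0.578 over all 16816 genes and 0.75 over the 14110 genes at 1 CPM or more, which describes genes within these libraries and not independent replicates.

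The number of genes called rested on single libraries. Without replicate 4 with ABX before extinction it was 3057, and without replicate 4 of the controls at that stage 1052. It was 87 without replicate 4 of the controls after extinction, 64 and 56 without replicates 3 and 4 with ABX after extinction, and 30 without replicate 1 of the controls before extinction. It was 16, 4 and 5 without replicates 1, 2 and 3 of the controls after extinction, 15 and 14 without replicates 1 and 2 with ABX after extinction, 11, 13 and 11 without replicates 1, 2 and 3 with ABX before extinction, and 4 without replicate 3 of the controls before extinction. Without the 3 libraries richest in blood genes 1 gene passed, and with 1 surrogate variable as a covariate 4 did. The sign of the fold change did not reverse for any of the 105 genes in the 26 alternative settings in which they were tested. These settings reuse all or most of the libraries the genes were picked in, which partly fixes the sign. Myh6, Krt9, Pltp and Podxl were called in all 15 fits that left out 1 library, and 65 of the 105 in 4 or fewer.

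**Figure D2:**
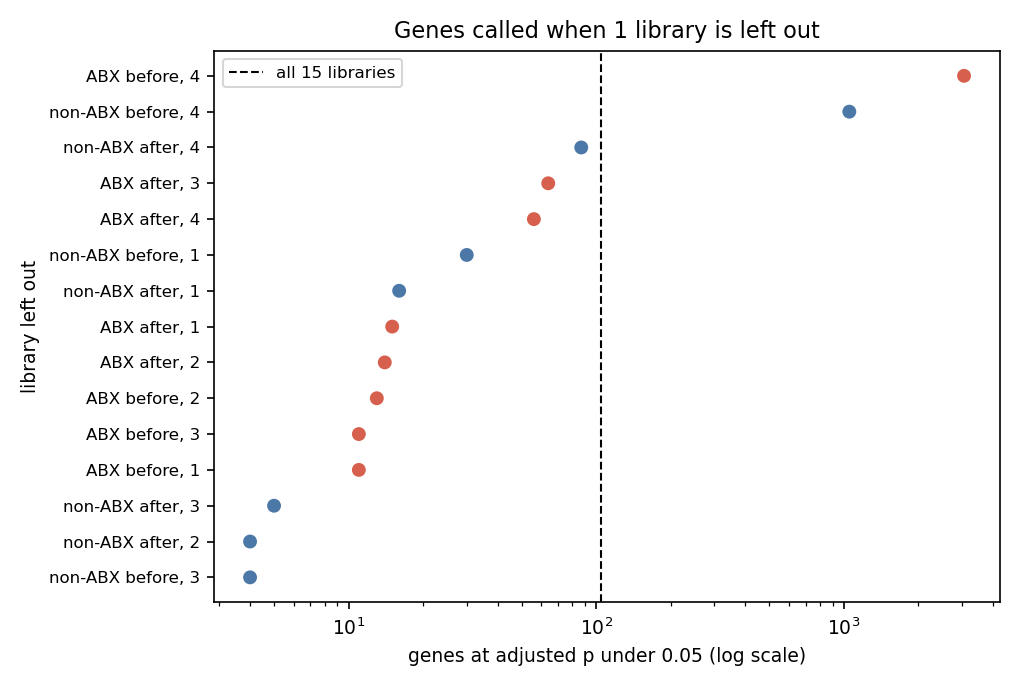
Number of genes at an adjusted p under 0.05 in the averaged contrast (x axis, log scale) when the library named on the y axis is left out; red marks ABX and blue non-ABX libraries, and the dashed line is the 105 genes found with all 15 libraries. Counts ran from 4 to 3057.

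Podxl (chr6:31519493-31563937, protein coding) encodes podocalyxin, a sialomucin of the endothelial surface. It was at 44.4, 46.8 and 55.8 CPM without ABX and 32.5, 29.2, 33.6 and 39.9 CPM with ABX before extinction, and at 46.4, 49.5, 53.2 and 48.1 CPM without and 36.1, 34.8, 30.4 and 34.8 CPM with ABX after it. The ABX libraries were below all controls of their stage (log2 fold change -0.53, SE 0.07, adjusted p = 0.0053). Pltp (chr2:164839518-164857708) encodes the phospholipid transfer protein of plasma lipoproteins. It was at 26.2, 38.8 and 27.8 CPM without ABX and 14.4, 15, 16.8 and 24.6 CPM with ABX before extinction, and at 33, 35.2, 36.3 and 30.7 CPM without and 19.3, 14.2, 18.3 and 19.5 CPM with ABX after it. Here too the arms did not overlap at either stage (log2 fold change -0.86, SE 0.12, adjusted p = 0.00669). Its span overlaps Ctsa, which had a log2 fold change of -0.06 (adjusted p = 0.419), and whether the 2 share counted reads was not tested. Myh6 (chr14:54941921-54968017), the alpha heavy chain of cardiac myosin, was at 5.07, 4.74 and 4.79 CPM without ABX and 1.79, 1.31, 1.09 and 1.63 CPM with ABX before extinction, and at 1.87, 2.1, 2.74 and 2.62 CPM without and 1.85, 1.46, 1.83 and 1.4 CPM with ABX after it. It was the called gene with the smallest p (log2 fold change -1.13, SE 0.12, adjusted p = 7.4e-04), although its difference was -1.74 before and -0.51 after extinction. Reads could be shared with its paralog Myh7 and with the overlapping Cmtm5, which had a log2 fold change of -0.17 (adjusted p = 0.204).

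Upstream sequences are shown for the genes called in every fit that left out 1 library and for Acta2, the leading smooth muscle gene, to let the regions ahead of lowered and raised genes be compared. They are the 250 bases before the start that the RefSeq promoter table lists for each gene, build GRCm38.p6, all on the minus strand, at chr14:54966608-54966857 (Myh6), chr2:164857709-164857958 (Pltp), chr19:34255374-34255623 (Acta2) and chr11:100193247-100193496 (Krt9). For Myh6 the whole stretch and for Acta2 most of it lie inside the annotated span of the gene, so that the listed start is not the outermost one. Podxl has no entry in the table used. Capitals mark GGAA on either strand, the core that ETS factors of endothelial cells bind, where TTCC is the same core read from the other strand.
Myh6: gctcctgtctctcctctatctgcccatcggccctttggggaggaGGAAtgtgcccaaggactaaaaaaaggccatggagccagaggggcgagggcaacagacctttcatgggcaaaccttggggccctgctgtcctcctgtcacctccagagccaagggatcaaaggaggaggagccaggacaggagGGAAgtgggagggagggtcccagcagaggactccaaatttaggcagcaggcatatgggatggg
Pltp: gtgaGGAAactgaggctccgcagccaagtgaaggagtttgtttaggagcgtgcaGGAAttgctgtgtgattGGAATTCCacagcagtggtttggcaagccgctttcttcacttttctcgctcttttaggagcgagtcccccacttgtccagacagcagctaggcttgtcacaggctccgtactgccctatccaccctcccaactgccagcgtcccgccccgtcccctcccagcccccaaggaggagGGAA
Acta2: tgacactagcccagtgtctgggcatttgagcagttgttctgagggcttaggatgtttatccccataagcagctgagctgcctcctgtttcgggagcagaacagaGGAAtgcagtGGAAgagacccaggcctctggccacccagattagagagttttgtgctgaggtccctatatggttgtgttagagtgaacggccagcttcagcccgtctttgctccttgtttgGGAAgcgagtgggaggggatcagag
Krt9: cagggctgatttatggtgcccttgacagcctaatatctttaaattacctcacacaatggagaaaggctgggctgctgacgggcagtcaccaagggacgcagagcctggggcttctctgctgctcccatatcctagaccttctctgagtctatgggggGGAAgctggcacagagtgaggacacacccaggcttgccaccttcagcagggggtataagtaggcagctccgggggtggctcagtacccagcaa
The 3 lowered genes had 59.2%, 57.6% and 53.6% G and C in these stretches, and the raised Krt9 56.4%. Over the windows of 300 bases that reach 50 bases past the start, 70 windows of 58 lowered genes had a median of 63% G and C and 22 windows of 19 raised genes 56.8%, against 60% in 16196 windows of 12772 genes tested. GGAA was in all 70 windows of lowered genes and all 22 of raised genes, against 95.3% of all windows. The CArG box is bound by serum response factor, a regulator of contractile genes. Its exact form (CC, then only A or T, then GG) was in 1 window of lowered genes (1.43%), that of Tanc1. It was in 0 windows of raised genes, against 1.3% of all windows. Boxes that depart from this form were not counted, so that these shares do not show whether Acta2 has one. ACAAT, a core of SOX factors, was in 15.7% of windows of lowered and 36.4% of windows of raised genes, against 21.4% of all windows. The CArG box and ACAAT were searched on both strands.

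Endothelial genes were the list with the lowest median. Of 40 members tested, 10 fell, where 0.464% of all genes tested were called lower, and 0 rose. On the lower side at both stages were 37, against 36.9% of all genes. The median log2 fold change was -0.39, against 0.01 over all genes (-0.34 before and -0.38 after extinction). The list's summed level was 506 to 655 CPM with ABX and 658 to 732 CPM without it before extinction, and 500 to 613 CPM with and 674 to 714 CPM without it after extinction, so that the arms did not overlap at either stage. In bulk RNA, fewer cells of a type and less RNA per cell cannot be told apart. With each library's trend on gene GC content removed the list's median was -0.34 and 20 members were called. Leaving out 1 library gave 1 called member (replicate 3 of the controls before extinction, or replicate 2 or 3 of the controls after it) to 28 (replicate 4 with ABX before extinction), with medians of -0.45 to -0.35, and without the 3 blood-rich libraries 0 members passed.

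The called members hold the receptors through which vessels respond to growth factors. Flt1 (chr5:147561604-147726438), a receptor for vascular endothelial growth factor, was at 60.3, 66.5 and 73.1 CPM without ABX and 42.7, 41.3, 49.1 and 55.3 CPM with ABX before extinction, and at 55.1, 69.6, 66.3 and 66.8 CPM without and 41, 42.5, 46.2 and 56.5 CPM with ABX after it. The ABX libraries were lower than the controls before extinction, while after it the highest ABX library reached past the lowest control (log2 fold change -0.48, SE 0.08, adjusted p = 0.0323). Kdr, the main signalling receptor for the same factor, was at 16.5, 16 and 17.5 CPM without ABX and 13.2, 11.9, 11.8 and 15.7 CPM with ABX before extinction, and at 15.2, 18.5, 15 and 14.1 CPM without and 11.3, 9.69, 11.9 and 12 CPM with ABX after it. Its arms were apart at both stages (log2 fold change -0.41, SE 0.08, adjusted p = 0.0372). Tie1, the orphan partner of the angiopoietin receptor, fell by 0.77 on the log2 scale (SE 0.15, adjusted p = 0.0372), and Eng, endoglin, a co-receptor for transforming growth factor beta, by 0.66 (SE 0.12, adjusted p = 0.0372). Acvrl1, a receptor with which endoglin acts, was not in the list and fell by 0.53 (SE 0.10, adjusted p = 0.0372).

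Other endothelial members were a transcription factor, an enzyme and matrix or surface proteins. Sox17 (chr1:4490928-4497426), a transcription factor of arterial endothelium, was at 2.48, 3.78 and 3.21 CPM without ABX and 1.81, 1.23, 1.6 and 2.38 CPM with ABX before extinction, and at 3.94, 3.03, 3.52 and 2.94 CPM without and 2.23, 2.14, 2.26 and 2.44 CPM with ABX after it. No ABX library reached a control of its stage (log2 fold change -0.70, SE 0.13, adjusted p = 0.0361). Mmrn2, multimerin 2 of the endothelial matrix, was at 4.53, 5.26 and 5.53 CPM without ABX and 3.05, 2.45, 3.44 and 4.54 CPM with ABX before extinction, and at 5.17, 5.28, 5.45 and 4.75 CPM without and 3.09, 2.39, 2.82 and 3.29 CPM with ABX after it. At 4.54 CPM replicate 4 with ABX before extinction sat level with the lowest control at 4.53 CPM, and after extinction the arms were apart (log2 fold change -0.72, SE 0.11, adjusted p = 0.0176). Nos3, endothelial nitric oxide synthase, had a log2 fold change of -0.78 (SE 0.15, adjusted p = 0.0372), and its span overlaps Atg9b, whose value was 0.15 (adjusted p = 0.273). The surface protein gene Ly6c1 (log2 fold change -0.41) and the receptor phosphatase Ptprb (-0.36) completed the called members. Among members that did not pass were Cldn5, the main tight junction protein of the barrier (-0.70, adjusted p = 0.0634), Cdh5, the endothelial cadherin (-0.39, adjusted p = 0.0539), and Pecam1 (-0.34, adjusted p = 0.0709). Apold1, an early response gene of endothelium, was the 1 member on the higher side at both stages (0.36, adjusted p = 0.111).

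**Figure D3:**
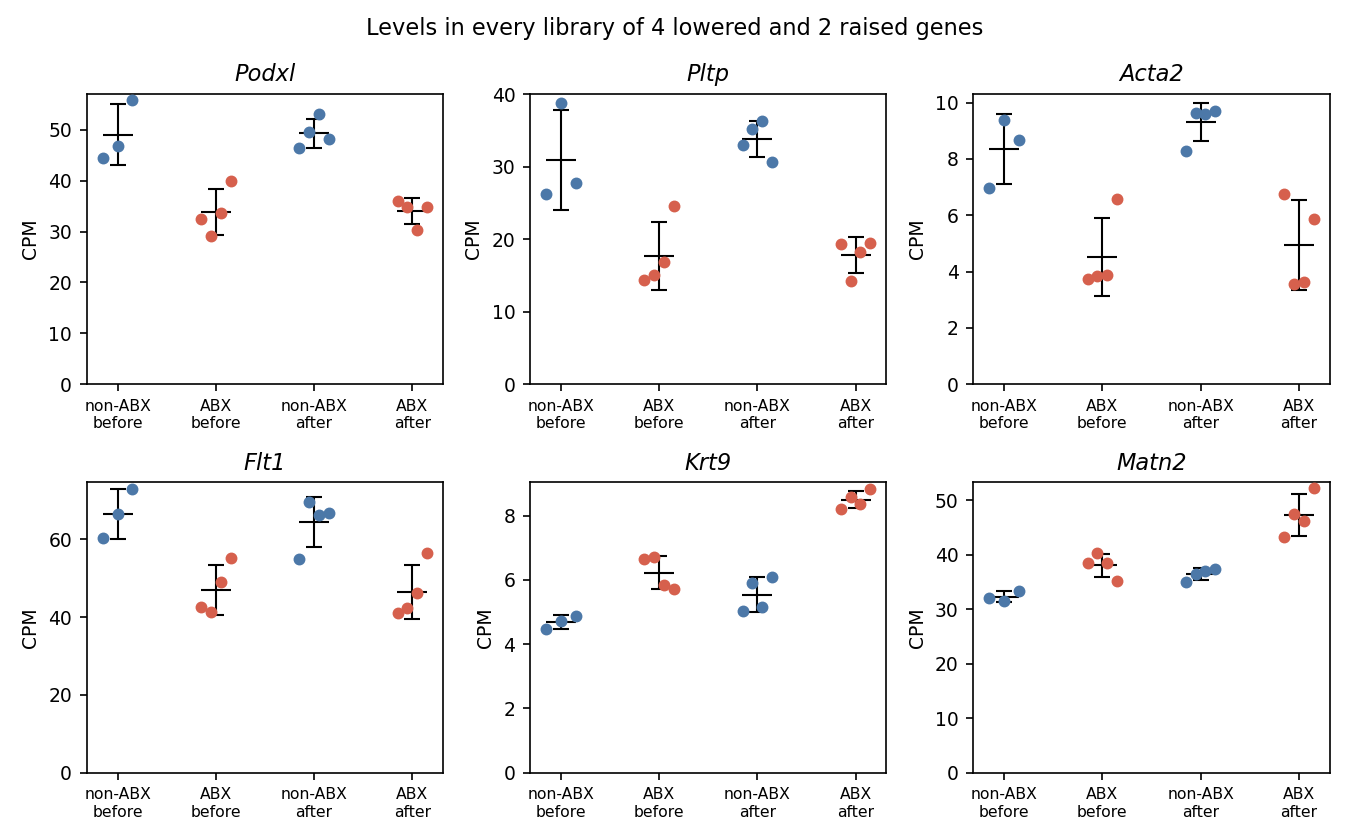
CPM (y axis, from 0) of Podxl, Pltp, Acta2, Flt1, Krt9 and Matn2 in every library of the 4 groups; points are libraries, blue without and red with ABX, and bars are the mean and SD. The first 4 genes are lower and the last 2 higher with ABX at both stages, and replicate 4 with ABX before extinction is the highest ABX library of that stage for Podxl, Pltp, Acta2 and Flt1.

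Of 22 carriers of the blood-brain barrier tested, 2 fell, where 0.464% of all genes were called lower, and 0 rose. The median was -0.15, and 16 (72.7%) were on the lower side at both stages, against 36.9% of all genes. Slc7a5, the large neutral amino acid carrier, was at 83, 96.4 and 87 CPM without ABX and 53.6, 63.9, 64.1 and 79.3 CPM with ABX before extinction, and at 85.3, 85, 87.3 and 83.8 CPM without and 70.1, 70.2, 70.9 and 77.3 CPM with ABX after it. All ABX libraries were below the controls of their stage (log2 fold change -0.34, SE 0.07, adjusted p = 0.0372), and with the GC trend removed the value was -0.18 (adjusted p = 0.0444). Slc38a5, a glutamine carrier, was called as well (log2 fold change -0.47, adjusted p = 0.0433), with -0.17 before and -0.77 after extinction. Slc2a1, the glucose carrier, had -0.51 and did not pass (adjusted p = 0.0767).

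Contractile genes of vascular smooth muscle were also lower, with 4 of 16 members called lower, against 0.464% of all genes tested, and 0 higher. On the lower side at both stages were 11 (68.8%), against 36.9% of all genes. Opposite signs at the 2 stages were found for 4 (25.0%), against 23.1% of all genes. The median was -0.29. Acta2 (chr19:34240336-34255585), smooth muscle actin, was at 6.98, 9.39 and 8.66 CPM without ABX and 3.72, 3.85, 3.88 and 6.59 CPM with ABX before extinction, and at 8.28, 9.64, 9.58 and 9.69 CPM without and 6.75, 3.56, 3.63 and 5.85 CPM with ABX after it. Each ABX library was below each control of its stage (log2 fold change -0.90, SE 0.15, adjusted p = 0.0313). Tagln (chr9:45929628-45936058), transgelin, which binds actin, was at 6.74, 7.55 and 6.87 CPM without ABX and 4.27, 4.08, 4.85 and 6.39 CPM with ABX before extinction, and at 7.62, 8.19, 8.11 and 8.15 CPM without and 6.49, 4.51, 4.98 and 5.92 CPM with ABX after it. The arms were again apart at both stages (log2 fold change -0.54, SE 0.10, adjusted p = 0.0361), and the overlapping Pcsk7 had -0.06 (adjusted p = 0.457). Myh11, smooth muscle myosin, was at 8.05, 11.5 and 8.56 CPM without ABX and 4.49, 4.68, 4.59 and 7.74 CPM with ABX before extinction, and at 7.11, 9.06, 11.6 and 10.4 CPM without and 5.62, 4.47, 4.92 and 7.83 CPM with ABX after it. After extinction its highest ABX library, at 7.83 CPM, was above the lowest control at 7.11 CPM (log2 fold change -0.77, SE 0.15, adjusted p = 0.0372). The intermediate filament gene Des fell by 0.83 (SE 0.16, adjusted p = 0.0372). The summed level of the list was 295 to 312 CPM with ABX and 308 to 334 CPM without it before extinction, and 310 to 319 CPM against 311 to 328 CPM after it, so that the sums overlapped at both stages. With the GC trend removed the list's median was -0.22 and 5 members were called. With 1 library left out, 0 to 7 members were called and the median was -0.32 to -0.22.

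Of 20 pericyte genes, only Ndufa4l2, a mitochondrial subunit paralog, was called (log2 fold change -0.70, adjusted p = 0.0452), where 0.464% of all genes were called lower. With the GC trend removed Ndufa4l2 was at -0.40 (adjusted p = 0.0509). Lower at both stages were 14 of the 20 (70.0%), against 36.9% of all genes. The pericyte median was -0.15, and -0.09 with the GC trend removed. The summed level was 222 to 277 CPM with ABX against 257 to 296 CPM before extinction and 224 to 263 CPM against 267 to 302 CPM after it. The sums thus overlapped before extinction and were apart after it. Defining pericyte genes did not pass in the main fit, with Rgs5 at -0.37 (adjusted p = 0.0552), Notch3 at -0.42 (0.0634), Pdgfrb at -0.17 (0.178) and Kcnj8 at 0.18 (0.303). With the GC trend removed Rgs5 was at -0.49 (0.0191) and Cspg4, another member, at -0.26 (0.0448), and both passed. In that fit Notch3 was at -0.14 (0.135) and did not. None of 25 fibroblast genes was called, and their median was -0.05. Astrocyte (24 genes, median 0.01), microglial (26, median -0.04) and excitatory neuron genes (27, median -0.01) had 0 calls each, as did interneuron (30, median -0.03), striatal neuron (15, median -0.07), oligodendrocyte (20, median -0.07), oligodendrocyte precursor (16, median -0.13), choroid plexus and ependymal (9, median 0.15) and ribosomal protein genes (72, median 0.07). In all, 17 of the 78 lowered genes were in the endothelial, barrier, smooth muscle or pericyte lists, and 79 of the 105 called genes were in no list.

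**Figure D4:**
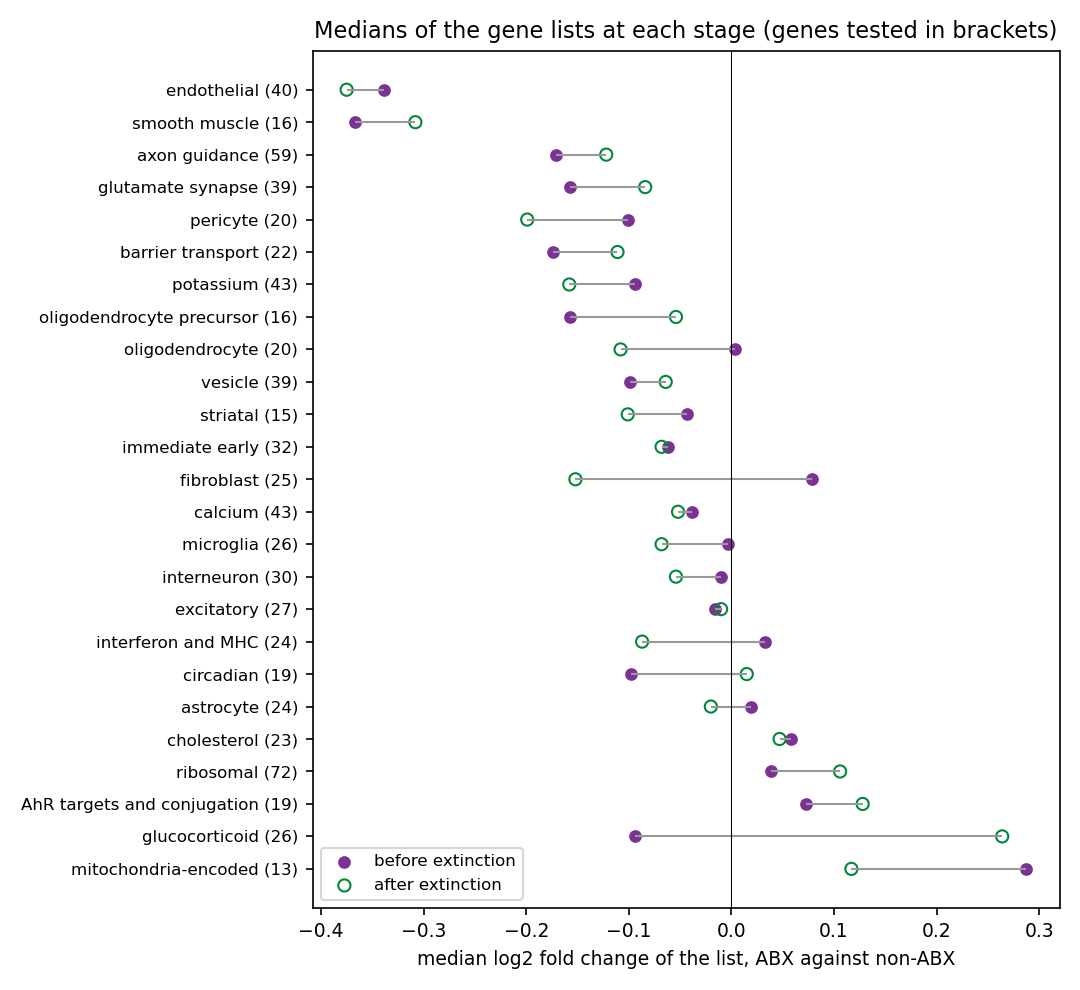
Median log2 fold change of ABX against non-ABX (x axis) of each gene list with at least 10 genes tested, before extinction (filled) and after extinction (open), with the number of genes tested in brackets. Endothelial and smooth muscle genes have the lowest medians at both stages. The glucocorticoid list has medians of opposite sign, as do the circadian, fibroblast, interferon and MHC, astrocyte and oligodendrocyte lists.

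Further lowered genes encode secreted or matrix proteins. Cxcl12 (chr6:117168535-117181368), a chemokine that vessels and some neurons release, was at 64.5, 70.8 and 73.6 CPM without ABX and 52.3, 48.9, 57.7 and 61.1 CPM with ABX before extinction, and at 65.8, 71.5, 66.4 and 71.3 CPM without and 54.8, 49.1, 50.6 and 55.8 CPM with ABX after it. The arms were apart at both stages (log2 fold change -0.36, SE 0.06, adjusted p = 0.0176). Npnt, nephronectin, an integrin ligand of basement membranes, was at 35.2, 36.9 and 34.4 CPM without ABX and 29.1, 27.3, 34.2 and 30.6 CPM with ABX before extinction, and at 33.3, 38.5, 38.4 and 34.8 CPM without and 27, 26.5, 25.6 and 22.8 CPM with ABX after it. It too was lower in every ABX library (log2 fold change -0.37, SE 0.06, adjusted p = 0.0176). Inhba (chr13:16004256-16031609), a subunit of activins and an activity-induced gene in neurons, was at 5.26, 5.56 and 5.55 CPM without ABX and 3.21, 4.61, 3.65 and 3 CPM with ABX before extinction, and at 4.38, 5.65, 5.71 and 4.73 CPM without and 3.28, 4.03, 3.43 and 2.79 CPM with ABX after it. Its arms were apart at both stages (log2 fold change -0.59, SE 0.10, adjusted p = 0.0336), and unlike most lowered genes it is poor in G and C (41.4%). Fn1, fibronectin, fell by 0.43 on the log2 scale (SE 0.08, adjusted p = 0.0372).

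The naming rule also took Trpv4, Sigirr and Pglyrp1, signalling and innate immune genes at low levels with arms apart at both stages. Trpv4, a cation channel of vessels and astrocytes, was at 1.36, 1.84 and 1.25 CPM without ABX and 0.686, 0.762, 0.662 and 1.11 CPM with ABX before extinction, and at 1.92, 1.68, 2.11 and 1.38 CPM without and 0.915, 1.01, 1.23 and 1.31 CPM with ABX after it (log2 fold change -0.77, SE 0.14, adjusted p = 0.0372). Sigirr, which restrains interleukin 1 and Toll-like receptor signalling, had a log2 fold change of -0.69 (adjusted p = 0.0406). Pglyrp1, a protein that recognises bacterial peptidoglycan, had -0.60 (adjusted p = 0.0432), at 3.1, 4.49 and 3.25 CPM without and 1.53, 1.89, 2.2 and 2.8 CPM with ABX before extinction and at 3.85, 4.29, 4.69 and 3.49 and 2.75, 2.72, 3.34 and 3.37 CPM after it. Srarp, a regulator of steroid receptors, was chosen after its values were seen, as the called gene of lowest fold change among those with a mean of at least 1 CPM (log2 fold change -1.14, SE 0.17, adjusted p = 0.0176). It was at 1.47, 2.04 and 1.4 CPM without ABX and 0.487, 0.526, 0.811 and 0.826 CPM with ABX before extinction, and at 1.72, 2.29, 1.96 and 1.4 CPM without and 0.809, 0.679, 0.846 and 1.42 CPM with ABX after it. Its arms were apart before extinction, but after it replicate 4 with ABX, at 1.42 CPM, was above the lowest control at 1.4 CPM.

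Among the lists of neuronal genes, calls were in calcium handling, postsynaptic, transmitter release and axon guidance genes. Of 43 calcium channel, pump and signalling genes, 4 fell, where 0.464% of all genes were called lower, and 0 rose. The median was -0.04, and 21 (48.8%) were on the lower side at both stages, against 36.9% of all genes. Cacna1i, a T-type calcium channel, was at 137, 181 and 139.8 CPM without ABX and 100.4, 121, 113 and 135 CPM with ABX before extinction, and at 149, 178, 163 and 156 CPM without and 111, 119, 136 and 119.7 CPM with ABX after it. The arms were apart at both stages (log2 fold change -0.40, SE 0.07, adjusted p = 0.0372), but with the GC trend removed the value was -0.13 (adjusted p = 0.115). Atp2b2 (chr6:113743831-114042613), a calcium pump of the plasma membrane, was at 1022, 1354 and 1039.8 CPM without ABX and 825, 915, 931 and 1034 CPM with ABX before extinction, and at 1127, 1366, 1244 and 1156 CPM without and 868, 876, 1014 and 904 CPM with ABX after it. Before extinction the highest ABX library, replicate 4, was above the lowest control, and after it the arms were apart (log2 fold change -0.36, SE 0.07, adjusted p = 0.0372). The kinase gene Camkk2 had -0.25 (adjusted p = 0.04) and Itpr3, an inositol trisphosphate receptor, -0.63 (adjusted p = 0.0499).

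Of 39 ionotropic glutamate receptor and postsynaptic density genes, 27 (69.2%) were on the lower side at both stages, against 36.9% of all genes tested. The median was -0.16. While 0.464% of all genes were called lower, 1 member was called. This was Cacng2 (chr15:77991919-78120220), stargazin, which carries AMPA receptors to synapses. It was at 49.3, 64.1 and 52.1 CPM without ABX and 36, 42.4, 45.7 and 47.5 CPM with ABX before extinction, and at 55.6, 61.9, 63.1 and 53.3 CPM without and 40.3, 45.9, 48.5 and 43.7 CPM with ABX after it. No ABX library reached a control of its stage (log2 fold change -0.38, SE 0.07, adjusted p = 0.0372). The scaffolds Shank1 (-0.55, adjusted p = 0.06), Shank3 (-0.53, 0.0634) and Dlg4 (-0.33, 0.0679) did not pass in the main fit. With the GC trend removed the list's median was -0.06. In that fit Shank1 was at -0.22 (adjusted p = 0.0394) and Dlgap4, another member, at -0.18 (0.0339), and both passed. Grm2, a metabotropic glutamate receptor in none of the lists, was chosen after its values were seen and was at 59.7, 86.3 and 49.2 CPM without ABX and 38.2, 47.9, 42.9 and 53.7 CPM with ABX before extinction, and at 74.4, 70.8, 76.7 and 63.1 CPM without and 46.3, 47.7, 57.3 and 55.9 CPM with ABX after it. Its arms overlapped before extinction and were apart after it (log2 fold change -0.48, SE 0.10, adjusted p = 0.0491). Of 39 vesicle genes (median -0.07), Syt2, a calcium sensor of fast release, fell by 0.35 (SE 0.08, adjusted p = 0.0466), and Unc13c, a vesicle priming factor, rose by 0.30 (SE 0.06, adjusted p = 0.0404). Unc13c was at 35.5, 32.3 and 37.6 CPM without ABX and 48, 38.8, 43.6 and 39 CPM with ABX before extinction, and at 29, 28.2, 34.1 and 32.7 CPM without and 39.9, 40.8, 36.6 and 39.3 CPM with ABX after it, with no overlap at either stage. In the axon guidance list of 59 genes the median was -0.16, and 40 (67.8%) were on the lower side at both stages, against 36.9% of all genes. The list's median GC content was 55%, against 49.8% over all genes, and its median with the GC trend removed was not taken. Robo3, a receptor of axons that cross the midline, had -0.52 and Sema7a, a membrane-bound semaphorin, -0.38 (adjusted p = 0.0432 and 0.0499). With the GC trend removed they were at -0.30 and -0.16 (adjusted p = 0.0473 and 0.0446). None of 43 potassium channel genes was called, and 28 (65.1%) were on the lower side at both stages, against 36.9% of all genes (median -0.13). Their median GC content was 51.8%, and the GC trend was not removed for this list either.

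The genes called higher formed no group among the lists, of which the vesicle list alone held 1. Krt9 (chr11:100186781-100193246), a type I keratin, was at 4.46, 4.72 and 4.88 CPM without ABX and 6.64, 6.7, 5.85 and 5.72 CPM with ABX before extinction, and at 5.02, 5.9, 5.16 and 6.1 CPM without and 8.22, 8.58, 8.36 and 8.83 CPM with ABX after it. All ABX libraries were above the controls of their stage (log2 fold change 0.51, SE 0.07, adjusted p = 0.0053). Etnppl (chr3:130617448-130635750), an astrocyte enzyme that breaks down phosphoethanolamine, was at 22.9, 20.6 and 23.9 CPM without ABX and 44.2, 27.1, 32.6 and 41.8 CPM with ABX before extinction, and at 39.1, 31.3, 38.1 and 32.3 CPM without and 53.3, 54.1, 53.3 and 99.3 CPM with ABX after it. It had the largest rise among called genes with a mean of at least 1 CPM (log2 fold change 0.79, SE 0.14, adjusted p = 0.0361), with replicate 4 with ABX after extinction far above the rest at 99.3 CPM. Matn2 (chr15:34306681-34436242), a matrix protein, was at 32, 31.5 and 33.4 CPM without ABX and 38.4, 40.3, 38.4 and 35.1 CPM with ABX before extinction, and at 35, 36.4, 37.1 and 37.4 CPM without and 43.2, 47.5, 46.2 and 52.3 CPM with ABX after it. Its arms were apart at both stages (log2 fold change 0.30, SE 0.05, adjusted p = 0.0178).

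Zcchc12 (chrX:36195904-36199164), a coactivator in bone morphogenetic protein signalling, was at 32.4, 28.9 and 32.2 CPM without ABX and 34.4, 41.4, 37 and 32.7 CPM with ABX before extinction, and at 29.6, 28.2, 29.6 and 32.6 CPM without and 40.2, 43.2, 37.4 and 39.1 CPM with ABX after it. Each ABX library was above each control of its stage (log2 fold change 0.32, SE 0.06, adjusted p = 0.0361). Utp14b, a ribosome assembly factor, was at 10.9, 9.43 and 11.3 CPM without ABX and 14.3, 16, 15.5 and 13.6 CPM with ABX before extinction, and at 7.23, 8.23, 8.48 and 9.29 CPM without and 10.5, 13, 10.2 and 11.4 CPM with ABX after it. It was called (log2 fold change 0.47, SE 0.07, adjusted p = 0.0176), but it lies inside the span of Acsl3, a fatty acid enzyme with a log2 fold change of 0.25 (adjusted p = 0.0634), and whether the 2 share counted reads was not tested. Cd46, a complement regulator, had 0.50 (adjusted p = 0.0466) beside the overlapping Cr1l at 0.13 (adjusted p = 0.149). Amy1, an amylase with near copies in the genome, had 0.42, the proteoglycan gene Epyc 0.50 and Zgrf1, a helicase-like gene, 0.37 (adjusted p = 0.0405, 0.0475 and 0.0452). Churc1 had 0.28 (adjusted p = 0.0372), and 0.16 with the GC trend removed (adjusted p = 0.105).

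Stress, immune and metabolic lists held no called gene in the main fit. Of 26 genes induced by the glucocorticoid receptor, 0 were called and 11 (42.3%) had opposite signs at the 2 stages, against 23.1% of all genes tested. That share was 57.9% in the circadian, 41.7% in the interferon and antigen presentation and 40.0% in the fibroblast list. The glucocorticoid list had a median of -0.09 before and 0.26 after extinction. Fkbp5, a feedback regulator of that receptor, was at -0.14 before and 0.39 after extinction, and Sgk1, a kinase it induces, at 0.04 and 0.40. The immediate early (32 genes, median -0.06), circadian (19, median -0.003), interferon and antigen presentation (24, median -0.01), cholesterol (23, median 0.07) and aryl hydrocarbon receptor lists (19, median 0.08) had 0 calls. Of the 23 cholesterol genes, 13 (56.5%) were on the higher side at both stages, against 40.0% of all genes, and 7 (30.4%) on the lower side. Arms apart and higher at both stages were found for 3, against 0.624% of all genes. Among them were Fdft1 (0.21, adjusted p = 0.0569) and Cyp51 (0.23, 0.0616). With the GC trend removed Fdft1 passed (0.23, adjusted p = 0.0253) and Cyp51 did not (0.16, 0.0531). Others that passed in that fit included the immediate early genes Btg2 (0.805, 0.049) and Egr3 (-0.50, 0.0483). Gsta4 of the aryl hydrocarbon receptor list passed there too (0.145, 0.0496). Mitochondria-encoded genes had a median of 0.18, with 11 of 13 on the higher side at both stages, against 40.0% of all genes tested, and 0.04 with the GC trend removed. The 6 blood cell genes tested had a median of 1.24 with 0 calls. The summed level of the listed blood genes, tested or not, was highest in the 3 libraries named at the outset. Of these, 2 were with ABX.

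The difference with ABX moved with the GC content of genes. Among the fifth of genes lowest in GC content (31% to 44%), the median log2 fold change was 0.12, with 13 genes called higher and 3 lower. In the fifth with the most (55.5% to 72.3%) it was -0.23, with 0 called higher and 32 lower. The called genes had a median GC content of 54% when lower and 43.9% when higher, against 49.8% over all genes. The trend of each library's log counts on GC content ran from -0.41 to 0.04 per 10 points in the 4 ABX libraries before extinction and from -0.14 to 0.31 in the 3 controls, and from -0.12 to 0.12 against 0.05 to 0.29 after extinction. The difference of -0.20 had p = 0.0392 in a two-sided exact permutation within stages (2450 arrangements), and 0.0866 adjusted over 4 library measures. Total counts were lower with ABX as well (exact p = 0.0433, adjusted 0.0866).

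Whether RNA quality or library making differed between the arms was not tested. With each library's GC trend removed, 94 of the 105 genes were still called and all 105 kept their sign. The number called was then 630, of which 254 were higher (40.3%, against 25.7% in the analysis without it). The share higher was 43.6% of 133 genes under upper quartile scaling and 37.5% of 902 under limma voom with quality weights.

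**Figure D5:**
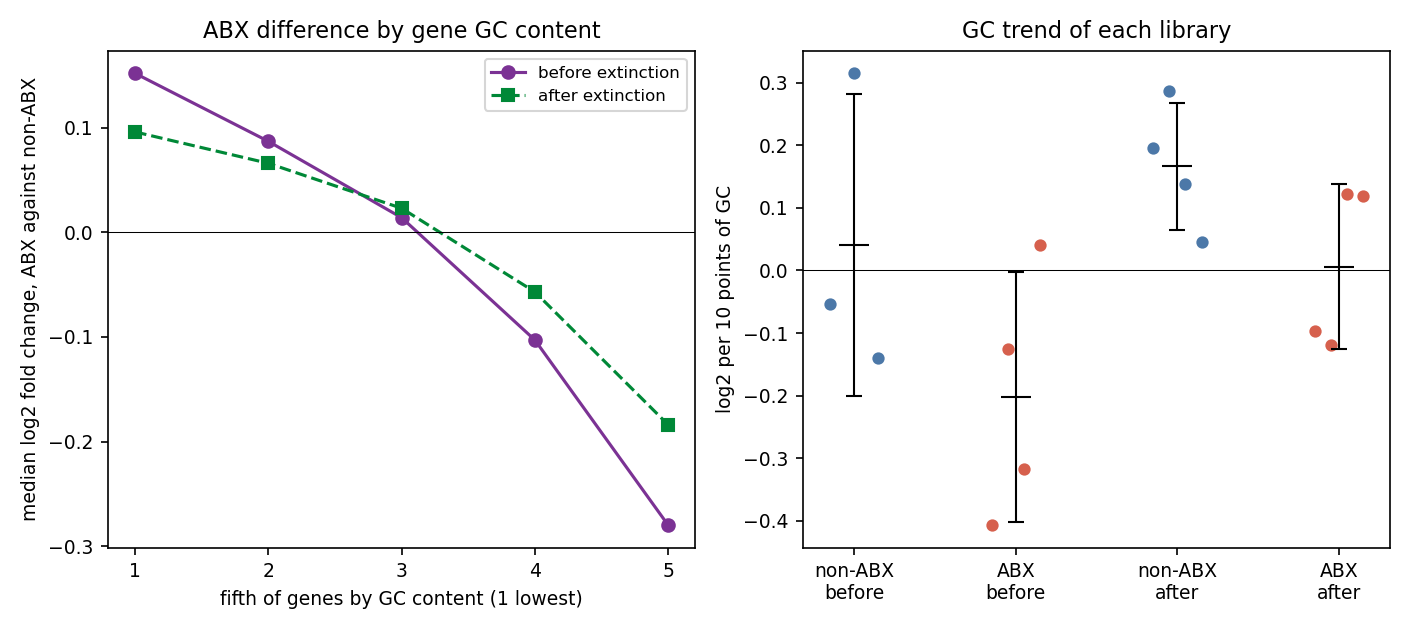
Left, median log2 fold change of ABX against non-ABX (y axis) in 5 equal groups of genes by GC content (x axis, group 1 lowest), before and after extinction. Right, trend of log2 count on GC content (y axis, log2 per 10 points of GC) in each library of the 4 groups, with mean and SD; the ABX libraries tend lower at both stages, and the groups overlap.

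The size of the ABX difference was compared between stages by the interaction. No gene of 16816 passed by edgeR (0 called, 346 at an unadjusted p under 0.05, 2.06%), while DESeq2 called 4. The 3 genes of smallest p were Myh6, Pkp2 and Prr16 (unadjusted p = 7.5e-05, 1.0e-04 and 1.1e-04, adjusted p = 0.564 each). Pkp2, plakophilin 2 of desmosomes, was at 5.88, 6.72 and 6.4 CPM without ABX and 4.8, 5.95, 6.7 and 6.09 CPM with ABX before extinction, and at 6.91, 6.73, 6.48 and 6.67 CPM without and 8.96, 12.1, 11.6 and 11.1 CPM with ABX after it. The difference was -0.10 before and 0.71 after extinction, and Pkp2 did not pass in the average (adjusted p = 0.0634). For Prr16 the differences were 0.40 and -0.36. Among the 105 called genes, 6 had an unadjusted interaction p under 0.05, Slc38a5, Npnt, Mb, Pdzrn3 and Nts besides Myh6.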

How the data were processed

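RNA of dissected mPFC was sequenced in 15 libraries, for which the labels' protocols name Clontech's SMARTer Ultra Low Input V4 kit, a kit that does not keep strand. CASAVA 1.8.2, STAR 2.3.0 and build mm10 are named per the submitters' processing notes, while the counting program, annotation and filters were not given in those notes. The authors' deposited values are raw, whole-number counts for 27179 Entrez identifiers, 4671 of them at 0 throughout, with no normalization, and 25275 identifiers were matched to RefSeq symbols (GRCm38.p6). Depth was 44254906 to 57929503 counts, and the biological coefficient of variation was 0.112, so that for all but the lowest genes the spread between libraries set the precision.

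Low genes were removed with filterByExpr (at least 10 counts, 15 in total), and TMM gave scaling factors of 0.969 to 1.025. The counts were fitted with edgeR 4.0.16 in R 4.3.3 as 4 group means over all 15 libraries, with no covariate. Both ABX differences were weighted 0.5. Tests are two-sided, with Benjamini-Hochberg adjustment over 16816 genes. Standard errors were derived from the fold change and the F statistic. CPM are scaled by TMM. GC content came from GENCODE transcripts, for 95.3% of genes tested. The code was tested on simulated data.

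The 27 gene lists, the members and the naming rule were chosen with earlier results of these data known. The rule took the 12 largest changes in each direction among called genes with arms apart at both stages, 1 CPM or more on average and an ordinary symbol, the 3 members of smallest p in each list (5 in the endothelial, smooth muscle, pericyte and glucocorticoid lists), Myh6, Krt9, Pkp2 and Npnt always, and the 3 genes of smallest interaction p. Not every gene the rule took is given here. The other called members of the lists, known markers that did not pass, Acvrl1, Cxcl12, Fn1, Grm2, Srarp and the low genes of the closing section were named after their values were seen. Of the 105 called genes, 22 overlap another protein-coding gene in the annotation. Alternatives were RLE and upper quartile scaling, DESeq2 1.42.0, voom in limma 3.58.1, 2 other filters, an additive model, a block on the replicate number, 1 surrogate variable (sva 3.50.0), GC trends removed by splines with 5 degrees of freedom, and libraries left out.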

Additional observations from a re-analysis of the deposited data

Results flagged for a closer look

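In 183 groups of 4 libraries (53 genes and 8 library measures), 14 held 1 library set apart from the other 3 by Dixon's gap test at the 95% level, where chance gives about 1 in 20. Replicate 4 with ABX before extinction was above its group for Acta2 (6.59 CPM against 3.72 to 3.88) and Myh11 (7.74 against 4.49 to 4.68). Replicate 4 with ABX after extinction was above its group for Etnppl (99.3 CPM against 53.3 to 54.1), Slc7a5 (77.3 against 70.1 to 70.9) and Zgrf1 (8.85 against 8.13 to 8.22). Replicate 2 without ABX after extinction was high for Robo3 (62.6 CPM against 45.4 to 47.4). Replicate 1 without ABX after extinction was below its group for Acta2 (8.28 CPM against 9.58 to 9.69), Tagln (7.62 against 8.11 to 8.19) and the summed smooth muscle list (310.9 against 326.6 to 328.3). The summed pericyte list was low in replicate 4 of that group (266.6 CPM against 296.9 to 301.5). Summed blood genes were high in replicate 1 with ABX before extinction (3.474 CPM against 1.003 to 1.071), in replicate 2 without ABX after extinction (3.441 against 0.8211 to 0.8679) and in replicate 1 with ABX after extinction (13.92 against 1.379 to 1.954). The last library was also high for choroid plexus and ependymal genes (26.75 CPM against 12.68 to 14.02).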

How the results depend on the processing

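The sign of all 105 genes was kept in every alternative that tested them, which reuse of the same libraries partly fixes, but how many passed was not stable. Against 105 genes (27 higher, 78 lower), DESeq2 called 1963 (647 and 1316), voom 902 (338 and 564), the additive model 470 (166 and 304), GC trends removed 630 (254 and 376), 1 surrogate variable 4 (1 and 3) and the fit without the 3 libraries richest in blood genes 1 (0 and 1). Upper quartile scaling gave 58 higher. Leaving out 1 library gave 4 to 3057 genes, 1 to 992 higher and 3 to 2065 lower. Called genes with an unadjusted p under 0.05 at each stage, 97 in the report, were 863 by DESeq2, 592 by voom, 458 with GC trends removed, 4 with the surrogate variable, 1 without the blood-rich libraries and 4 to 1287 with 1 library left out. Over all genes this count was 809, with 216 under the surrogate variable, 175 without the blood-rich libraries and 161 to 1287 with 1 library left out. The interaction had 0 calls by edgeR in each of these fits and 4 by DESeq2. RLE scaling (93), no filter (127) and a mean of at least 1 CPM (88) stayed close to 105. Where a count moved with a setting the cause was not tested. Fits that left libraries out also had fewer of them, and their counts lay both above and below 105.

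Deviations of same-numbered libraries correlated at -0.491 to 0.374 over 21 pairs, 8 of them over 0.1. Their median was 0.018, against 0.028 for libraries with other numbers, and 4 of 15 libraries correlated best with their own number. No pairing by replicate number was seen in these correlations, and whether the numbers stand for a batch was not tested. With the replicate number as a block 666 genes were called (204 higher, 462 lower), 578 of them at an unadjusted p under 0.05 at each stage.

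Depth limited only the lowest genes: 11 of the 105 had a mean under 1 CPM.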

Other observations

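The 11 called genes with a mean under 1 CPM include the largest fold changes. Cxcr5, a chemokine receptor of lymphocytes, was at 0.121, 0.138 and 0.165 CPM without and 0.465, 0.2, 0.213 and 0.383 CPM with ABX before extinction, and at 0.189, 0.208, 0.168 and 0.138 CPM without and 0.341, 0.453, 0.282 and 0.604 CPM with ABX after it (log2 fold change 1.19, edgeR adjusted p = 0.0432). Its span overlaps Bcl9l, which had -0.58 (adjusted p = 0.0702). Nts, the neuropeptide neurotensin, was called on the average (1.18, adjusted p = 0.0499) with log2 fold changes of 0.30 before and 2.06 after extinction, at 0.103 to 0.158 CPM without and 0.121 to 0.199 CPM with ABX before extinction and at 0.0189 to 0.0842 CPM without and 0.181 to 0.288 CPM with ABX after it. Srp54b, a gene with near copies in the mouse genome, had -2.07 (adjusted p = 0.0442).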
